A study of Mus musculus with 24 samples.

Results

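Mitochondrial ribosomal proteins were followed as a group of 77 genes, defined as every gene on the array whose symbol begins with Mrpl or Mrps followed by a digit. There were 48 Mrpl and 29 Mrps genes, taken from 19938 genes represented by a probe set with 1 gene symbol, and where a gene had several probe sets the one with the highest mean was used. The samples were 24 pools of mouse blastocysts of the NMRI stock, each measured on 1 Affymetrix array of the Mouse Gene 1.0 ST type and each made by joining 3 embryos that shared 1 mother and 1 sex. Both parents of the lean-parent pools had received a control diet. The obese-father pools had a father kept on a high-fat, high-calorie diet and a mother on the control diet, and the obese-mother pools had the reverse. Diets ran for 9 weeks from the age of 3 weeks, mating took place at 12 weeks, with all animals on the control diet during mating, and embryos were collected on day 3.5 after mating. Each of the 3 parental pairings gave 4 male and 4 female pools, so there were 6 groups of 4 arrays. The high-fat cohort had 7 animals and the control cohort 14. Taken as given, 7 high-fat animals are fewer than the pools of either obese-parent pairing, so some of these pools would share the obese parent. The labels do not say which pools shared a mother or a father. Pools were therefore treated as independent, and every p-value below measures the spread between pools and not between parents. No gene had been deleted or introduced.

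The mitochondrial ribosome translates the few proteins that mitochondrial DNA encodes, all of which are core subunits of the respiratory chain and the ATP synthase. Its RNAs come from mitochondrial DNA, whereas all its proteins are encoded in the nucleus, made in the cytosol and imported. Some of these proteins descend from the bacterial ancestor of mitochondria and others were added later in evolution. In mice, loss of single members such as Mrpl22, Mrpl44 or Mrps18c is known to stop development soon after implantation. The blastocyst is the stage at which the outer trophectoderm, which forms the placenta, has separated from the inner cell mass, which forms the embryo, and its need for respiration rises there.

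All values are the deposited log2 intensities, and a difference of 1 is a doubling of intensity. Of the 77 genes, 52 were above the median of all values in the table, 2.56, on all 24 arrays. A gene was tested when at least 4 arrays were above that median, which 73 of the 77 and 13311 of the 19938 genes met. The genes not tested were Mrpl32, whose product is cut by the m-AAA protease before it joins the ribosome, Mrps25, Mrps27, a pentatricopeptide repeat protein, and Mrps36, which has since been described as a subunit of the oxoglutarate dehydrogenase complex. Mrpl32 ranged from 1.65 to 2.996 and Mrps25 from 1.51 to 3.88, each with 3 arrays above the median. Mrps27 stayed between 1.42 and 2.35 and Mrps36 between 1.66 and 2.17, with 0 arrays above it. All 77 symbols matched the RefSeq gene table, where they lay on 17 chromosomes with 0 on X or Y.

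Markers of the cell types of the blastocyst were bright enough to be tested in 7 of 7 cases for the trophectoderm, 7 of 7 for the epiblast and 6 of 6 for the primitive endoderm. Of the markers of cells that could adhere to embryos, Fshr and Ptx3 of cumulus cells, Ptprc, Lyz2 and Alas2 of blood, and Ltf, Lcn2 and Muc1 of the uterine epithelium were too dim to be tested. Others passed the filter, among them 5 of 7 cumulus genes (Amh with a median of 4.10 and Nr5a1 with 3.36), Cd52 of blood (2.44), Pax8 (2.95) and Foxj1 (3.48) of the uterus and oviduct, and 6 of 6 sperm genes, with Prm1 at 4.01. Their part in the results was not tested. The cumulus list averaged 2.60 to 3.02 over the lean male arrays and 2.29 to 2.62 over the obese-father male arrays. The uterine list gave 2.46 to 2.77 and 2.34 to 2.46, sperm 3.12 to 3.55 and 3.01 to 3.32, and blood 2.02 to 2.34 and 2.05 to 2.16. The trophectoderm list gave 4.64 to 5.29 and 4.94 to 5.66, epiblast 3.45 to 4.53 and 4.13 to 4.97, and primitive endoderm 3.53 to 3.71 and 3.51 to 3.92. In females the cumulus list gave 2.64 to 2.83 with lean parents and 2.29 to 2.80 with an obese father. Array means were nearly equal, from 2.83 to 2.86, but the standard deviation of all probe sets on an array, called the signal spread here, ran from 1.27 to 1.81. Its highest values were 1.81 on array 22, an obese-father female pool, and 1.72 on array 12, an obese-father male pool. In whole-embryo pools fewer cells of a type and less RNA per cell cannot be told apart.

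The mean of the 73 tested mitoribosomal genes overlapped between all 6 groups and was pulled up by a few arrays. It was 3.82 ± 0.223 (SD, n = 4) in lean male pools, 4.11 ± 0.256 in obese-father males and 3.91 ± 0.221 in obese-mother males. In females it was 3.88 ± 0.11 with lean parents, 4.05 ± 0.589 with an obese father and 3.85 ± 0.151 with an obese mother. The standard deviation in obese-father females came from array 22, at 4.93, while the other arrays of that group lay between 3.67 and 3.83. Array 12 was the next highest at 4.49, above the other obese-father males at 3.92 to 4.02. Array 22 held the highest value of the 24 for 39 of the 73 genes and array 12 for 12 of them. The lowest values were most often on lean male array 4 and obese-father female array 24, with 10 genes each.

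**Figure D1:**
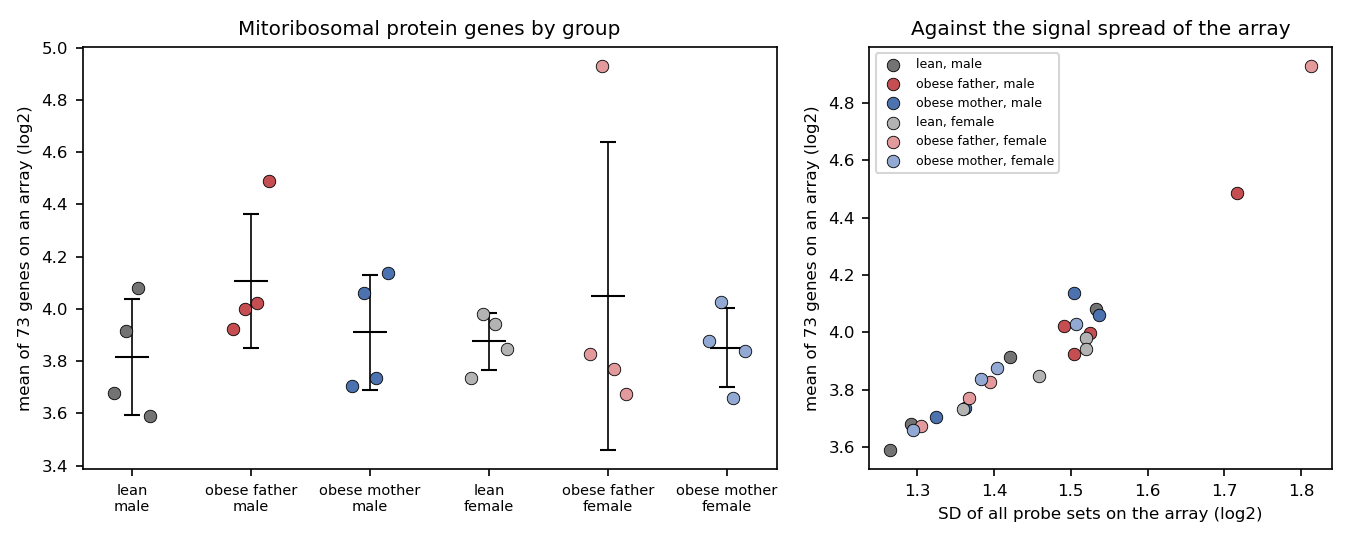
Left, the mean log2 intensity of the 73 tested Mrpl and Mrps genes on each array, with points for the 4 arrays of a group, a wide tick for the group mean and bars for 1 SD. Right, the same mean against the standard deviation of all probe sets on the array (log2). The highest points are array 22 of the obese-father females at 4.93 and array 12 of the obese-father males at 4.49, which also had the widest signal spread, and the groups overlap.

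The genes moved with the signal spread inside groups too. Within groups, 64 of the 73 genes had higher values on arrays of wider spread, against 30.3% of all genes tested, and the median slope was 0.20 log2 units for each 0.1 of spread against −0.07 over all genes. The spread is computed from the same arrays, and on each of them these genes were brighter on average than all genes tested. Their mean was 4.93 against 3.345 on array 22 and 3.59 against 3.256 on array 4. No list of equal brightness was set beside these slopes. Mrps18c, 1 of 3 paralogues of a bacterial small-subunit protein, had the steepest slope at 1.04, followed by Mrpl42 at 0.92. Those were also the genes with the largest pooled standard deviation within groups, 1.56 for Mrps18c and 1.37 for Mrpl42, with Mrpl51 and Mrpl18 at 1.07 and Mrpl24 at 0.93 next. Across all arrays Mrps18c ran from 2.94 to 8.46 and Mrpl42 from 3.23 to 9.10. The steadiest genes were Mrpl38 with a pooled standard deviation of 0.13, Mrpl4 with 0.16, Mrpl30 with 0.17, Mrpl3 with 0.18 and Mrps16 with 0.19. Genes of both kinds were found in both subunits, as the map of deviations by array shows.

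**Figure D2:**
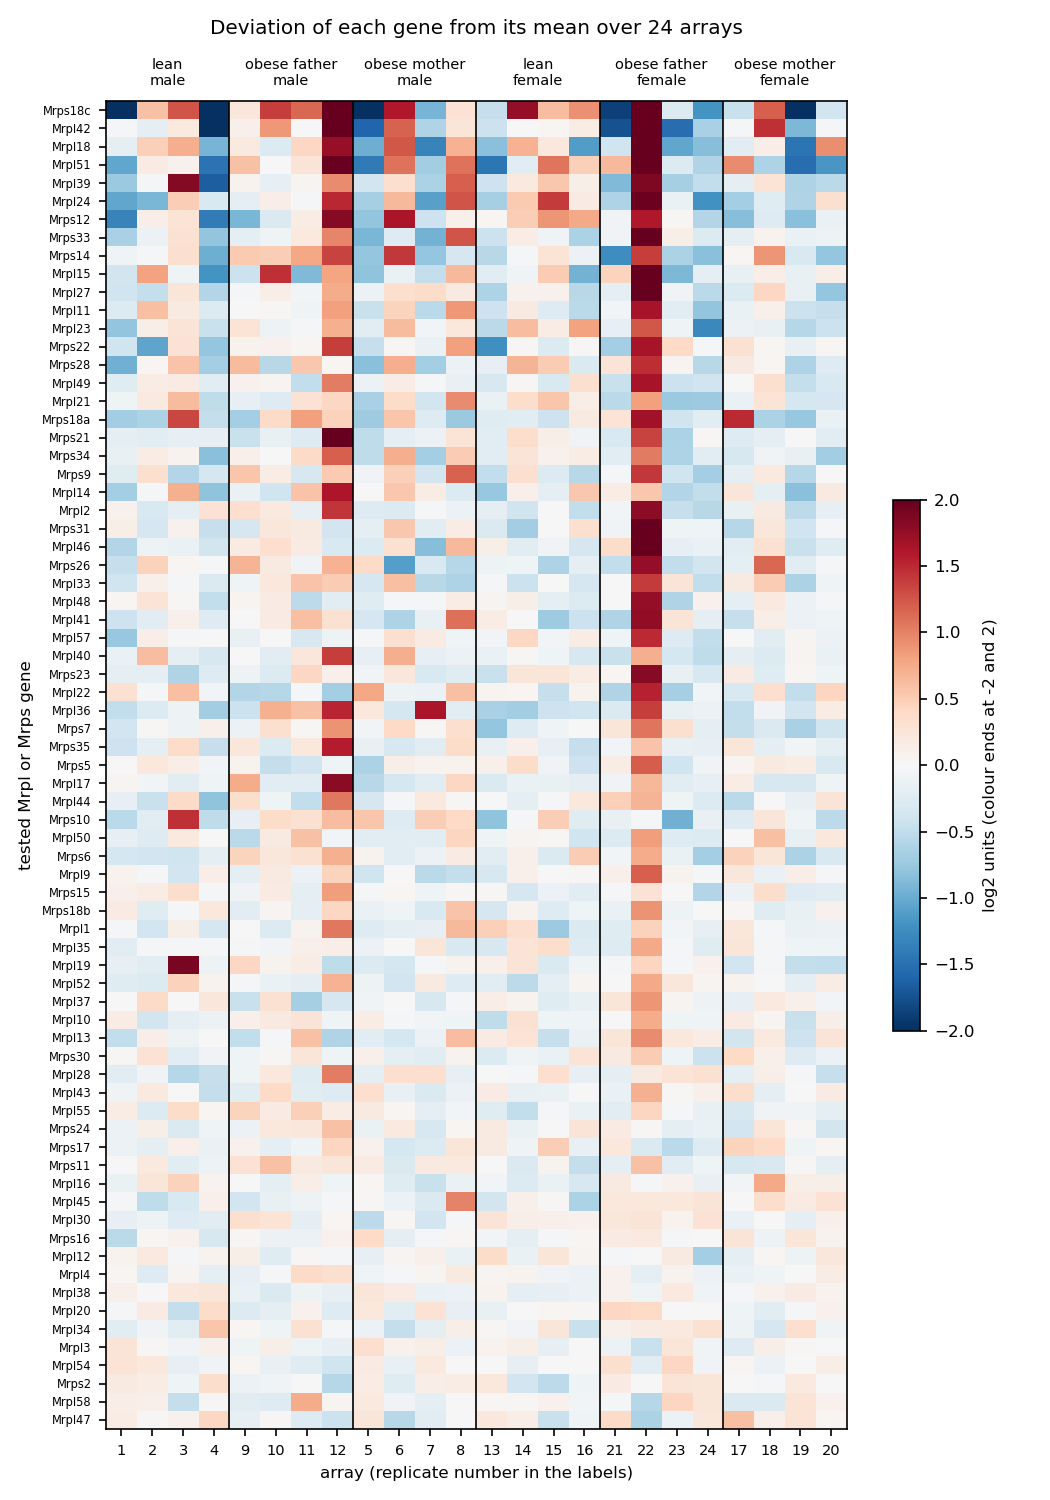
Each row is 1 of the 73 tested genes and each column 1 array, grouped by parents and sex, with red for values above and blue for values below that gene's mean over 24 arrays (log2, colour ends at −2 and 2). Rows run from the steepest to the lowest slope on signal spread, with Mrps18c on top; array 22 is red in most rows, and arrays 1 and 4 of the lean males are blue in the upper rows.

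RefSeq held a promoter window of 300 bases, from 250 before to 50 after the annotated start, for 68 of the 77 genes (build GRCm38.p6). These windows were searched on both strands for the letters of factors known to serve nuclear genes of mitochondria. GCATGCGC, the core of nuclear respiratory factor 1 (NRF1), was found for 11.8% of the mitoribosomal genes and 3.94% of all protein-coding genes. CCGGAAG, bound by ETS factors such as GABP, was found for 36.8% against 12.9%, and AAGATGGC, bound by YY1, for 17.6% against 3.57%. At least 1 of these 3 was present for 37 of 68 genes, or 54.4%, against 18.7% of protein-coding genes. Of the other motifs, CCAAT was found for 38.2% against 42.3%, GGGCGG of SP factors for 34 of 68 genes against 49.2%, and the E-box CACGTG for 7.35% against 8.91%. TATAAA was found for 7.35% against 14.8% and CTCGCGAG for 2.94% against 1.41%. The motifs can overlap each other, and the median GC content was 58.5% in the windows of these genes and 56.3% in those of protein-coding genes. The 35 tested genes with any of the first 3 motifs and the 29 tested genes with none had median differences from lean parents of 0.34 and 0.24 in obese-father males, 0.23 and 0.11 in obese-father females, 0.05 and 0.07 in obese-mother males, and 0.05 and 0.03 in obese-mother females. Without array 12 the male pair was 0.14 and 0.13, and without array 22 the female pair was 0.01 and −0.09.

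The 150 bases before the annotated start are printed for the genes named in the comparisons with lean parents below that have 1 window and hold an NRF1, ETS or YY1 motif in that stretch. They run 5′ to 3′ on the strand of the gene, and capitals mark the motif letters, on either strand. Mrpl22 (chr11:58171514-58171663, plus strand), next to the nascent-chain tunnel in the large subunit, holds ETS and NRF1 letters. Mrpl36 (chr13:73330859-73331008, plus strand) holds YY1 letters on the opposite strand, Mrpl52 (chr14:54426759-54426908, plus strand) ETS letters on the opposite strand, and Mrpl9 (chr3:94443186-94443335, plus strand) NRF1 letters that overlap on both strands.
Mrpl22: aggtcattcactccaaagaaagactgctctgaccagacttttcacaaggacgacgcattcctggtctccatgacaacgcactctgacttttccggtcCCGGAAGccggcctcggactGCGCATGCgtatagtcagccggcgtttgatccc
Mrpl36: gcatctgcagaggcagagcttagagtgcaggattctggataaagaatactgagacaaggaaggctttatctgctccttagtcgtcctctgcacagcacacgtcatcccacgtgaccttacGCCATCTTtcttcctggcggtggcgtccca
Mrpl52: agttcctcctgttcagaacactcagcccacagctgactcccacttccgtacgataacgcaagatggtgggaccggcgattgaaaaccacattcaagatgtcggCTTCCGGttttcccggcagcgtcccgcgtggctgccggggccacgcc
Mrpl9: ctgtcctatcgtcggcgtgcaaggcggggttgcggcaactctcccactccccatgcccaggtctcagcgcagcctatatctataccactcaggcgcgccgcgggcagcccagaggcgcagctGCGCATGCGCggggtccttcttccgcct

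The first comparison asked whether male embryos of obese fathers differed from male embryos of lean parents. Of the 73 genes, 58 had higher and 15 lower means, with a median difference of 0.30 against −0.11 over all 13311 genes. None of the 73 passed the threshold of a Benjamini-Hochberg adjusted p under 0.05 over all genes tested (limma), and 0.00751% of all genes did. At an unadjusted p under 0.05, 7 of 73 (9.59%) were higher and 3 (4.11%) lower, against 4.3% and 10.4% of all genes. The signal spread also differed, at 1.56 ± 0.105 in obese-father males and 1.38 ± 0.124 in lean males. With spread as a covariate the median of the 73 genes was −0.10, and without array 12 it was 0.14.

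Mrps6, a small-subunit protein with a bacterial homologue, had the smallest p of the 73 in obese-father males. Its values were 4.24, 4.20, 4.19 and 4.41 in lean males and 5.04, 4.81, 4.89 and 5.29 in obese-father males. All obese-father male arrays lay above all lean male arrays, and the difference was 0.75 (SE 0.25, limma adjusted p = 0.316). Mrps14 did not overlap either, at 2.30 to 3.59 in lean males and 3.77 to 4.63 in obese-father males. The share of all genes tested without overlap was not counted, here or in the comparisons below, so a lack of overlap does not set a gene apart. In obese-mother males Mrps6 read 4.65, 4.36, 4.47 and 4.75. In females its values overlapped in every pairing, from 4.30 to 5.09 with lean parents and from 3.90 to 5.33 with an obese father.

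Mrpl36, a small zinc-binding protein of the large subunit, read 3.03, 3.25, 3.43 and 2.83 in lean males and 3.10, 4.24, 4.12 and 5.04 in obese-father males. In that group 3 of the 4 arrays stood above all lean males, and the difference was 0.99 (SE 0.40, limma adjusted p = 0.316), or 0.69 without array 12. Mrpl28, another large-subunit protein with a bacterial homologue, read 3.33, 3.48, 2.98 and 3.08 in lean males against 3.46, 3.75, 3.30 and 4.57. Its groups overlapped, and the difference of 0.55 (SE 0.22, limma adjusted p = 0.316) was 0.29 without array 12. Mrps35, a protein without a bacterial homologue, gave 0.61 with all arrays and 0.23 without array 12. Mrpl30 gave 0.29, but −0.25 after quantile normalization of the arrays.

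Lower means in obese-father males were led by Mrpl38, a large-subunit protein that mitochondria added. Its values were 2.64, 2.52, 2.74 and 2.78 in lean males and 2.40, 2.25, 2.44 and 2.38 in obese-father males, close to the table's median of 2.56. The groups did not overlap, and the difference was −0.31 both with and without array 12 (SE 0.11, limma adjusted p = 0.316). Mrpl38 was above the median on 11 of 24 arrays, so part of its range lies among dim signals. Mrpl37 differed by −0.43 (SE 0.19), Mrps2 by −0.33 (SE 0.16), Mrpl22 by −0.68 (SE 0.36) and Mrpl47 by −0.38 (SE 0.21), with limma adjusted p-values from 0.326 to 0.361. Mrps2 gave −0.21 without array 12 and −0.12 with spread as a covariate, which also took Mrpl47 to −0.10, Mrpl36 to 0.60, Mrps6 to 0.45 and Mrpl22 to −1.07. For Mrpl47 the lowest lean male, at 3.92, was above every obese-father male in unrounded values.

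The same question in female embryos gave 54 genes with higher and 19 with lower means in obese-father females than in lean females. The median difference was 0.20 against 0.02 over all genes, and −0.02 once array 22 was left out. With spread as a covariate it was 0.19. None of the 73 passed the threshold and 0% of all genes did, and the smallest limma adjusted p among them was 0.9997. At an unadjusted p under 0.05, 4 of 73 (5.48%) were higher and 0 lower, against 1.95% and 0.886% of all genes.

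Mrps7, which lies beside the path of the mRNA in the small subunit, led the females. It read 2.86, 3.39, 3.56 and 3.65 in lean females and 3.87, 4.71, 3.95 and 3.45 in obese-father females. Of the obese-father arrays 3 stood above all lean females, and the difference was 0.63 (SE 0.24), or 0.39 without array 22. Mrpl45, a relative of the protein-import subunit Tim44 that holds the ribosome to the inner membrane, read 3.18, 3.17, 3.17 and 3.21 in obese-father females against 2.58, 3.06, 2.98 and 2.32 in lean females. These groups did not overlap, and the difference was 0.45 (SE 0.21) with or without array 22. Mrpl36 did not overlap either, with 3.23, 4.91, 3.39 and 3.41 against 2.88, 2.84, 3.11 and 3.13, a difference of 0.74 (SE 0.40) that was 0.35 without array 22. Mrpl52 differed by 0.48 (SE 0.21), or 0.31 without array 22, and Mrps2 by 0.36 (SE 0.16), or 0.42.

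On the other side of 0 in obese-father females were Mrps17 at −0.33 (SE 0.19), Mrpl12 at −0.27 (SE 0.16), Mrpl21 at −0.52 (SE 0.34), Mrps18c at −0.92 (SE 1.01) and Mrpl23 at −0.33 (SE 0.38). Without array 22 Mrpl21 gave −0.90, Mrps18c −1.82 and Mrpl23 −0.77, and Mrpl12 and Mrps17 gave −0.31 each.

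**Figure D3:**
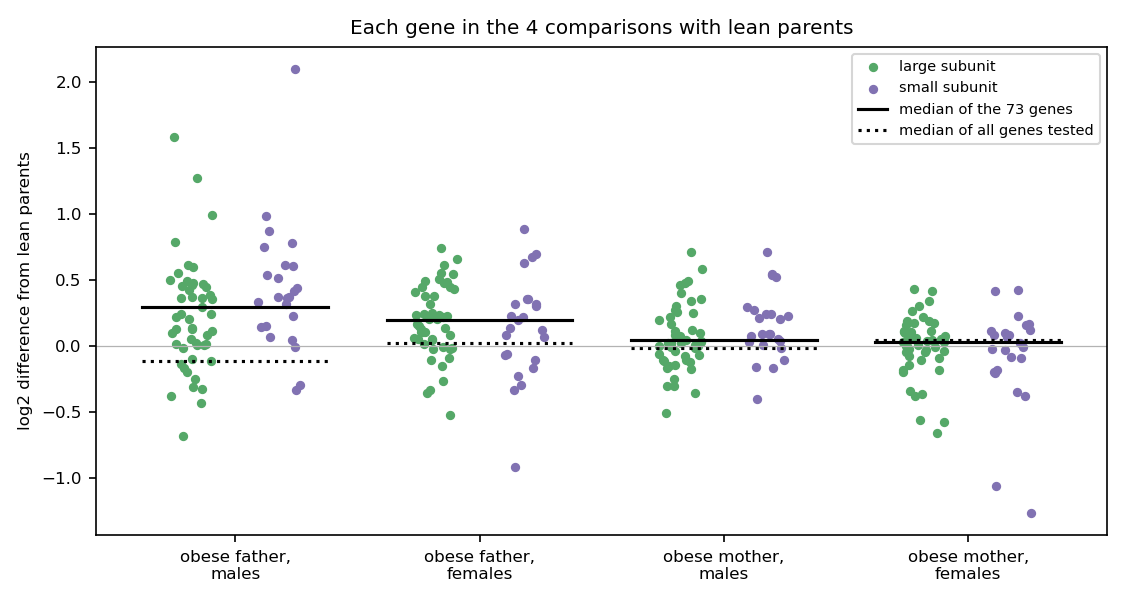
The log2 difference of each of the 73 tested genes from lean parents of the same sex (vertical axis) in the 4 comparisons with an obese parent, with large-subunit genes in green and small-subunit genes in purple. Solid lines mark the median of the 73 genes (0.30, 0.20, 0.05 and 0.03 from left to right) and dotted lines that of all genes tested (−0.11, 0.02, −0.01 and 0.05).

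With an obese mother, the male comparison gave 48 higher and 25 lower means and a median difference of 0.05 against −0.01 over all genes. None of the 73 passed the threshold (0% of all genes), and at an unadjusted p under 0.05 there were 0 higher and 1 lower, against 0.601% and 1.1% of all genes. That 1 gene was Mrpl16, next to the peptidyl transferase centre, where peptide bonds form. It read 4.39, 4.78, 4.99 and 4.61 in lean males and 4.57, 4.29, 4.08 and 4.40 in obese-mother males, a difference of −0.36 (SE 0.16) with overlapping groups. Mrpl19 differed by −0.51 (SE 0.32), a value set by lean male array 3 at 4.49, without which it was 0.01. Mrpl47 at −0.30, Mrpl9 at −0.30 and Mrpl37 at −0.25 followed on that side. The higher means were led by Mrpl28 at 0.40, Mrpl36 at 0.71, Mrps16 at 0.24, Mrpl45 at 0.34 and Mrps9 at 0.52, with limma adjusted p-values of 0.9998 or more throughout. The obese-father and obese-mother comparisons use the same lean pools, so values shared between them, such as those of Mrpl36, Mrpl28 or Mrpl37, are not independent.

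In females of obese mothers 41 means were higher and 32 lower, with a median difference of 0.03 against 0.05 over all genes. It was −0.01 once each array was centred on its median, and 0.135 with spread as a covariate. Again none of the 73 passed (0% of all genes). The 1 gene higher at an unadjusted p under 0.05, beside 0 lower, against 1.65% and 0.541% of all genes, was Mrpl16 too. It read 4.48, 4.25, 4.40 and 4.21 in lean females and 4.48, 5.29, 4.65 and 4.65 in obese-mother females, which did not overlap in unrounded values. The difference was 0.43 (SE 0.16, limma adjusted p = 0.999). Mrps12, which helps the small subunit to read the codon, read 5.90, 6.35, 6.74 and 6.62 in lean females and 5.02, 5.60, 5.03 and 5.74 in obese-mother females. All obese-mother arrays were lower, by 1.06 on average (difference −1.06, SE 0.56, limma adjusted p = 0.999). The remaining differences on the higher side were Mrpl45 at 0.42, Mrpl38 at 0.17, Mrpl47 at 0.31 and Mrps2 at 0.23, and on the lower side Mrpl23 at −0.57, Mrpl30 at −0.20, Mrps18c at −1.26 and Mrps24 at −0.20.

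Whether the paternal effect differed between the sexes was tested as an interaction, the male difference minus the female one. The median over the 73 genes was 0.01 against −0.14 over all genes, but 0.35 without array 22, −0.06 without array 12 and −0.29 with spread as a covariate. None of the 73 passed (0% of all genes), and 5 (6.85%) had an unadjusted p under 0.05 against 7.54% of all genes. Mrps2, a small-subunit protein with a bacterial homologue, had the smallest p. It read 5.78, 5.76, 5.51 and 5.95 in lean males and 5.495, 5.53, 5.60 and 5.03 in obese-father males. In females the order was the other way, 5.82, 5.22, 5.08 and 5.52 with lean parents and 5.77, 5.59, 5.87 and 5.85 with an obese father. The interaction was −0.69 (SE 0.22, limma adjusted p = 0.654). Mrpl37 gave −0.75 (SE 0.28), Mrpl38 −0.44 (SE 0.16), Mrps6 0.81 (SE 0.35) and Mrps24 0.43 (SE 0.23). Mrps18c gave 3.01 (SE 1.43), from 2.10 in males and −0.92 in females, at the same adjusted p, and 1.18 with spread as a covariate. With that covariate Mrps6 gave 0.52.

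For the maternal effect the interaction had a median of 0.05 (−0.11 with spread as a covariate) against −0.07 over all genes, 0 genes past the threshold (0% of all genes), and 3 (4.11%) with an unadjusted p under 0.05 against 2.58%. Mrpl16, lower in obese-mother males and higher in obese-mother females as given above, had an interaction of −0.79 (SE 0.22, limma adjusted p = 1.0). Its 95% interval ran from −1.26 to −0.32 before any adjustment over genes. Mrps12 gave 1.77 (SE 0.80), Mrpl47 −0.61 (SE 0.29), Mrpl28 0.58 (SE 0.31), Mrpl23 0.93 (SE 0.54) and Mrpl38 −0.27 (SE 0.16).

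**Figure D4:**
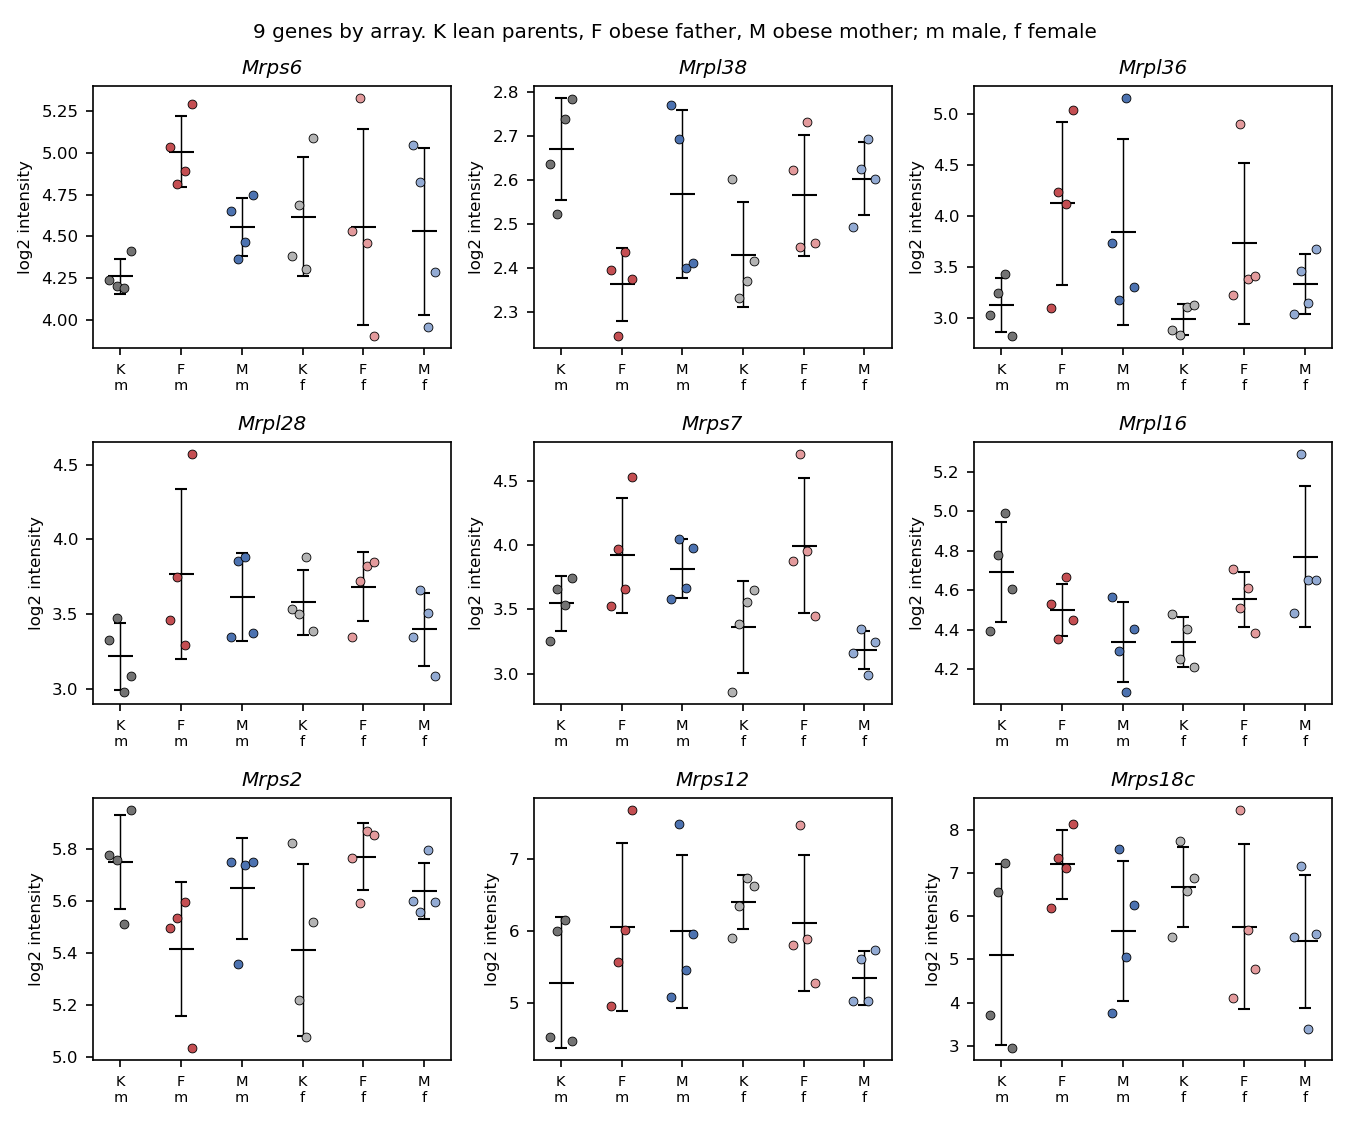
Log2 intensity of 9 genes on each array (points), with group means (wide ticks) and 1 SD (bars), for lean parents (K), an obese father (F) and an obese mother (M) in males (m) and females (f), each panel on its own axis. Mrps6 and Mrpl38 of obese-father males do not overlap lean males, and Mrpl16 and Mrps12 of obese-mother females do not overlap lean females; Mrps18c spans from 2.94 to 8.46.

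Between the sexes, lean pools had a median difference, males minus females, of −0.01 (0.06 over all genes), obese-father pools 0.01 (−0.07) and obese-mother pools 0.04 (−0.01). The obese-father median was 0.28 without array 22, −0.07 without array 12 and −0.14 with spread as a covariate, which gave 0.17 in lean pools and −0.02 in obese-mother pools. None of the 73 passed in any of them, against 0%, 0.00751% and 0% of all genes. At an unadjusted p under 0.05 there were 4 genes (5.48%), 5 (6.85%) and 2 (2.74%), against 3.37%, 5.42% and 1.41% of all genes. In lean pools Mrpl30 was lower in males by 0.33 (difference −0.33, SE 0.13), while Mrpl16, Mrpl38 and Mrps2 gave 0.36, 0.24 and 0.34 and Mrps12 and Mrpl28 −1.12 and −0.36. Mrpl30 read 5.45, 5.51, 5.35 and 5.38 in lean males and 5.87, 5.73, 5.71 and 5.70 in lean females, with no overlap, yet its limma adjusted p was 0.992. In obese-father pools Mrpl37 gave −0.55 (SE 0.19), Mrps2 −0.36, Mrpl20 −0.36, Mrps14 1.12, Mrpl55 0.31 and Mrps6 0.45. Without array 22 Mrpl37 gave −0.35, Mrps14 1.69 and Mrps6 0.71, and without array 12 Mrps2 gave −0.23. Mrpl20, 1 of the 5, was above the table's median of 2.56 on 4 of 24 arrays, the least that allowed a test. Those included obese-father female arrays 21 and 22, both at 2.74, so it was testable partly through the group where it was higher. Its median over all arrays was 2.33, among dim signals. In obese-mother pools Mrps7 gave 0.63 (SE 0.24), Mrpl16 −0.43 (SE 0.16), Mrpl47 −0.39, Mrpl9 −0.41, Mrps11 0.26 and Mrps10 0.45.

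Set directly against obese-father pools, obese-mother males had a median difference of −0.15 (0.09 over all genes) and obese-mother females −0.22 (0.03 over all genes). None of the 73 passed in either sex (0.00751% and 0% of all genes), and 3 (4.11%) and 2 (2.74%) had an unadjusted p under 0.05 against 8.35% and 3.25%. Both medians moved with the arrays of widest spread, to −0.01 in males without array 12 and 0.08 in females without array 22, and with spread as a covariate the male one was 0.08. Mrps7 in females, with 3.16, 3.35, 2.99 and 3.25 for obese mothers against 3.87, 4.71, 3.95 and 3.45 for obese fathers, did not overlap and differed by −0.81 (SE 0.24, limma adjusted p = 0.9748). In that comparison Mrps17 gave 0.42, Mrpl47 0.29, Mrpl16 0.22, Mrpl30 −0.26 and Mrpl46 −0.68, the last of which was −0.17 without array 22, where Mrpl47 gave 0.09. In males Mrpl22 gave 0.76, Mrpl38 0.20, Mrpl54 0.24, Mrpl30 −0.33, Mrpl17 −0.71 and Mrpl9 −0.44, with Mrpl17 at −0.28 without array 12.

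By place in the ribosome, the 49 tested large-subunit genes had median differences from lean parents of 0.21 in obese-father males, 0.21 in obese-father females, 0.02 in obese-mother males and 0.04 in obese-mother females. The 24 small-subunit genes had medians of 0.37, 0.17, 0.10 and 0.01 in the same order. Mrps30 and Mrps18a were counted with the large subunit, where their proteins sit. The 45 tested genes with a bacterial homologue had medians of 0.29, 0.13, 0.03 and 0.03, and the 26 that mitochondria added 0.27, 0.21, 0.09 and 0.06. Without array 22 the obese-father female medians were 0.03 for the large and −0.12 for the small subunit, and −0.03 and 0.04 for the classes by origin. Without array 12 the obese-father male medians were 0.09 and 0.23, and 0.14 and 0.13. With spread as a covariate all of these male medians were below 0, from −0.12 to −0.08. The obese-father female medians under that covariate were 0.19 and 0.17 by subunit, and 0.12 and 0.21 by origin. No difference between these classes was tested.

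The stalk recruits elongation factors to the large subunit, and its genes Mrpl10, Mrpl11 and Mrpl12 differed from lean males by 0.25, 0.13 and −0.11 with an obese father and by 0.12, 0.02 and −0.11 with an obese mother. In females they gave 0.23, 0.41 and −0.27, and 0.07, 0.03 and −0.14. The obese-father values of Mrpl10 and Mrpl11 were 0.03 and −0.09 in females without array 22, and 0.31 and −0.08 in males without array 12. Mrpl12, which has also been reported to bind the mitochondrial RNA polymerase, was on the lower side in each. Around the peptidyl transferase centre Mrpl2, Mrpl3 and Mrpl27 gave 0.48, −0.14 and 0.50 in obese-father males and 0.45, −0.10 and 0.62 in obese-father females. Without array 12 the male values were 0.16, −0.10 and 0.31, and without array 22 the female values were −0.09, 0.01 and −0.02. With an obese mother the same genes gave −0.14, 0.02 and 0.49 in males and 0.11, −0.04 and 0.05 in females. Mrpl16, also next to this centre, had a lower mean in obese-father males, at 4.53, 4.35, 4.67 and 4.45. Lean males read 4.39, 4.78, 4.99 and 4.61. Its mean was higher in obese-father females, and its obese-mother values are given above.

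At the exit of the tunnel, Mrpl23 and Mrpl24 shared their signs. They gave 0.43 and 0.79 in obese-father males, 0.36 and 0.48 in obese-mother males, −0.33 and −0.35 in obese-father females, and −0.57 and −0.66 in obese-mother females. Mrps12 (0.78, 0.71, −0.29 and −1.06) and Mrps18c (2.10, 0.55, −0.92 and −1.26) had the same signs as Mrpl23 and Mrpl24 in that order. Other genes of the large subunit did not share them. Mrpl22, next to the tunnel, was lower in obese-father males, at −0.60 without array 12. Mrpl47 gave −0.38, −0.30, 0.02 and 0.31 in the same order. Mrpl23, Mrpl24, Mrps12 and Mrps18c, put together here for their shared signs, had slopes on signal spread of 0.38 to 1.04 per 0.1, above the median of 0.20. The mean spread was 1.38 in lean males and 1.47 in lean females, the controls of each sex. Whether the spread bears on these signs was not tested. With spread as a covariate Mrpl23, Mrpl24, Mrps12 and Mrps18c gave −0.26, −0.28, −0.22 and 0.21 in obese-father males, and 0.16, 0.16, 0.41 and −0.01 in obese-mother males. In females the same fit gave −0.35, −0.39, −0.32 and −0.97 with an obese father, and −0.32, −0.26, −0.69 and −0.56 with an obese mother. Without array 12 Mrpl23, Mrpl24 and Mrps12 gave 0.26, 0.40 and 0.23 in obese-father males, and without array 22 the female values of Mrpl24 and Mrps12 were −1.01 and −0.75. In lean males Mrps18c read 3.70, 6.55, 7.23 and 2.94, so that arrays 1 and 4, of spread 1.29 and 1.27, were far below the others.

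The other Mrps18 paralogues did not show that range. Mrps18a, whose protein sits in the large subunit, gave 0.36 and 0.51 in obese-father males and females and −0.17 and 0.16 in obese-mother males and females, and Mrps18b gave −0.00, 0.32, −0.01 and 0.08. Mrps30 stayed between −0.06 and 0.09, and Mrpl58, a release factor that frees stalled ribosomes, between −0.09 and 0.13. Mrps5 gave −0.30 and 0.23 with an obese father and −0.17 and 0.03 with an obese mother. Without array 22 the obese-father female values were 0.06 for Mrps18a, 0.07 for Mrps18b, −0.07 for Mrps30, 0.19 for Mrpl58 and −0.10 for Mrps5, and without array 12 the male value of Mrps18b was −0.14.

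For 8 of the 77 genes there were 2 probe sets. A second set of Mrps5 gave 0.03 in obese-father males, where the set used gave −0.30, and a second set of Mrps33 gave −0.02 in obese-mother males, where the set used gave 0.09. Mrpl27 gave 0.50 in obese-father males by the set used and 0.04 by the other. Mrpl47 gave −0.38 there by both sets, but 0.02 by the set used and 0.43 by the other in obese-father females. Mrpl51 gave 1.27 by the set used and 0.97 by the other in obese-father males. By the set used it read 7.64 on array 12 and 5.67 to 6.24 on the other obese-father males. Its pooled standard deviation within groups was 1.07 and its slope on signal spread 0.65 per 0.1.

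Mitoribosomal proteins that carry other symbols had differences within the range of the 73 genes. Chchd1 gave 0.92 (SE 0.44, limma adjusted p = 0.338) in obese-father males, 0.55 in obese-father females, 0.58 in obese-mother males and 0.08 in obese-mother females. Dap3, a GTP-binding small-subunit protein, gave 0.24, 0.05, −0.02 and −0.08, Ptcd3 0.19, 0.37, −0.04 and 0.15, and Gadd45gip1 0.09, −0.17, 0.04 and −0.19.

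Other genes of mitochondrial translation gave 0 calls in the comparisons with lean parents. The 11 tested translation factors had medians of 0.27 and 0.17 in obese-father males and females and −0.09 and −0.03 in obese-mother males and females. Among them Slirp, which stabilises mitochondrial mRNA, gave 2.04 (SE 0.83, limma adjusted p = 0.316) in obese-father males, and Tufm, the elongation factor that brings aminoacyl-tRNA, gave 0.43 and 0.40 (SE 0.16) in obese-father and obese-mother females. The 21 assembly and rRNA-modification genes had medians of −0.01, 0.02, −0.02 and 0.06, in which C1qbp gave 1.76 (SE 0.59) and Eral1, the chaperone of the small-subunit rRNA, −0.40 (SE 0.13) in obese-father males. The 15 mitochondrial aminoacyl-tRNA synthetases had medians of −0.16, 0.06, −0.04 and 0.16, and in obese-father males Fars2, Lars2 and Mars2 gave −0.44, −0.48 and −0.42. The 8 genes of mitochondrial transcription and DNA maintenance had medians of 0.06, −0.01, −0.03 and −0.04.

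The cytosolic ribosomal proteins and the nuclear subunits of oxidative phosphorylation were the lists set beside the mitoribosomal genes. The 53 cytosolic ribosomal genes had medians of 1.37 in obese-father males, −0.22 in obese-father females, 0.71 in obese-mother males and −0.62 in obese-mother females. The 80 tested oxidative phosphorylation genes had medians of 0.80, −0.09, 0.16 and −0.39. The mitoribosomal medians were 0.30, 0.20, 0.05 and 0.03. Each of these was below 0 under at least 1 setting, though not the same one. With spread as a covariate the male medians were −0.10 with an obese father and −0.04 with an obese mother. The female medians under that covariate were 0.19 and 0.135. The obese-father female median was −0.02 without array 22, and the obese-mother female one −0.02 without lean female array 16. The cytosolic and oxidative phosphorylation medians are given only with all arrays and without the covariate. How far they depend on these settings was not tested. Of the 53 cytosolic genes 42 were higher at an unadjusted p under 0.05 in obese-father males, against 4.3% of all genes. They were led by Rpl7a at 1.29 (SE 0.44), and 0 of the 53 passed after adjustment. No test of the difference between the lists was made.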

How the data were processed

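The deposited table holds log2 intensities for 35556 probe sets on 24 arrays; per the submitters' processing notes, RMA and affy were used, in versions not given in the sources used. RMA equalises the distribution of probe values, so a shift shared by all genes would not be seen. The labels name NuGEN amplification of lysates of pooled embryos, and the number of arrays limits the precision.

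Gene names came from the platform annotation: 21789 probe sets had 1 symbol, 1621 several and 12146 none. Per gene, the set of the highest mean was kept. Groups were taken from the sample titles and characteristics. With R 4.3.3 and limma 3.58.1, 6 group means were fitted over all 24 arrays without a block, and 11 contrasts were tested with eBayes and Benjamini-Hochberg adjustment over 13311 genes, called under 0.05. The fit was tested on simulated data with noise drawn independently for each gene and array. That test does not cover signal shared by the genes of an array. List medians have no test. The members, lists and the rule for named genes (the smallest p on each side of 0, the most and least variable, textbook roles, untested members) were chosen with earlier results of these data known. Mrpl53 shares its probe set with another gene and was not used here. Alternatives changed the filter, scaling, probe set rule, array weights, covariates, prior, threshold and arrays. Promoters are from RefSeq (GRCm38.p6).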

Additional observations from a re-analysis of the deposited data

Results flagged for a closer look

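Within the groups of 4 arrays, 156 sets of values (25 named genes and the mean of the tested genes, each in 6 groups) were searched for an array whose gap to the nearest other, over the whole range, was above Dixon's 95% critical value. Chance gives such a gap in about 1 in 20 sets, and the 10 found are not far above that share. Sets from 1 array are not independent of each other, and 5 of the 10 were on array 22 of the obese-father females. On that array the mean of the 73 genes was 4.93, Mrpl21 was 6.85, Mrpl36 4.91, Mrpl9 4.32 and Mrps35 3.94, each far above the other obese-father females. Array 12 of the obese-father males was high for Mrpl52, at 5.29. Mrpl22 was high on obese-father male array 11, at 3.15, and low on lean female array 15, at 2.72. Mrpl19 was high on lean male array 3, at 4.49, and Mrps2 low on obese-mother male array 6, at 5.36.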

How the results depend on the processing

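The count of mitoribosomal genes called was 0 under every setting tried except 1, an estimated component of the residuals used as covariate. There it was 7 of 73 in obese-father males (Mrpl38, Mrpl42, Mrps14, Mrps18c, Mrps22, Mrps34 and Mrps6), beside 1901 of all 13311 genes. In the paternal interaction it was 2 of 73 (Mrps18c and Mrps2), beside 350 of 13311. The share of the mitoribosomal genes was thus below that of all genes in obese-father males and about equal to it in the interaction. That component has a mean of 0 in each group, so it leaves the differences as they are and takes variance out of the residuals it was estimated from. With it, 1901 genes were called in obese-father males, 601 between obese mothers and fathers in males and 350 in the paternal interaction, then 2 in obese-father females, 2 in obese-mother males, 1 between obese parents in females, 9 in the maternal interaction, 11 between lean sexes and 21 between obese-father sexes. With signal spread as covariate the median of the mitoribosomal genes was −0.10 in obese-father males and 0.17 between lean sexes. Under the same covariate it was 0.19 in obese-father females and 0.135 in obese-mother females. The 1 gene called in obese-father males, between obese parents in males and between obese-father sexes became 0 in each with a stricter filter and with only the compared groups fitted. Array weights gave 2, 2 and 1, and centring 0 for the sexes. The spread covariate gave 2, 0 and 4, and 2 in the paternal interaction. Without the 2 arrays of widest spread, 0 were called between obese parents in males. Leaving out each array gave 0 to 2 in obese-father males and between obese parents in males, and 0 to 1 in obese-father females, between obese parents in females and between obese-father sexes. Among named genes the sign turned for Mrpl30 in obese-father males after quantile normalization (−0.25). On leaving out arrays, Mrpl23 in obese-father females ran from −0.77 to 0.073 and Mrpl19 in obese-mother males from −0.69 to 0.0058. The cause of these changes was not tested. Leaving out arrays, the median of the mitoribosomal genes ran from 0.14 to 0.30 in obese-father males and from −0.02 to 0.28 in obese-father females, lowest without arrays 12 and 22. No paired analysis was possible because the replicate numbers are not shared between groups.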
